A study of Mus musculus with 8 samples.

Results

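Hair bulbs of K15-CrePGR mice lacking Bmpr1a, which encodes a receptor of type I for the bone morphogenetic protein (BMP) ligands, were compared with control bulbs by RNA sequencing. The comparison held 4 of the 8 libraries of the series, chosen by their labels as the transit-amplifying cells (TACs, the dividing progenitors of the hair bulb) of K15-CrePGR hair bulbs. All 4 came from mice of mixed strain at postnatal day 80. The libraries WT 52 and WT 57 carry the label K15-CrePGR;BmpR1a WT, and KO 64 and KO 84 the label K15-CrePGR;BmpR1a KO. The K15 (Krt15) promoter drives Cre, fused to a progesterone receptor, in the stem cells of the bulge, whose descendants form the bulb. The labels do not give the agent that induced Cre, the time from induction to day 80, whether the WT animals carried Cre, or how the bulb cells were isolated. The labels also do not say that the 4 numbers stand for 4 animals, so the p-values below measure the spread between these libraries only. A pair of TAC libraries from Shh-CreER mice, in which the Shh promoter drives an inducible Cre in the bulb itself, was set beside them: 1 Bmpr1a Het and 1 Bmpr1a cKO library at day 68, also of mixed strain.

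BMP ligands bind complexes of type I and type II receptors, which phosphorylate Smad proteins, and these enter the nucleus and switch on target genes such as the Id inhibitors of differentiation and the Msx homeobox genes. Secreted antagonists keep ligands from the receptors. In the hair bulb, matrix progenitors divide around the dermal papilla and move up into the hair shaft, built of hair keratins and keratin-associated proteins, and the inner root sheath, which moulds the shaft. BMP signalling through Bmpr1a is known to be needed for this differentiation. The outer root sheath runs outside these layers, continuous with the bulge and, above it, the isthmus, and it rests on a basement membrane.

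Expression was given as FPKM, reads scaled to transcript length and library size, and pairs of values below give WT 52 then WT 57, or KO 64 then KO 84. Each library summed to between 3791914 and 4641743 FPKM, and sequencing depth in reads is unknown. Of 45930 loci, 8904 without a gene name held 78.4% to 79.0% of these sums, and 13565 loci that had a gene name and averaged 1 FPKM or more were tested. Differences are on the log2(FPKM + 1) scale, KO minus WT, which understates the change of low genes. Across these loci the log values correlated at r = 0.954 between the WT libraries, 0.906 between the KO libraries and 0.877 to 0.918 between WT and KO libraries, all sharing the same genes. A difference of at least 2-fold separated WT 52 from WT 57 at 462 loci (3.41%) and KO 64 from KO 84 at 1404 loci (10.35%). Xist, the RNA of the inactive X chromosome, was at 3.26 and 175 FPKM in WT and 209.7 and 226 FPKM in KO, and Ddx3y, a gene of the Y chromosome, was at 26.4 and 0.0812 FPKM in WT and 0.0259 and 0.753 FPKM in KO, so WT 52 had a male pattern and the others a female one. KO 64 stood apart in marker genes of other cell types: the summed markers of immune cells were 170.2 and 44 FPKM in WT, 1517 FPKM in KO 64 and 269 FPKM in KO 84, and those of fibroblasts 514 and 512, 1994 and 681 FPKM. Fewer cells of a type and less RNA per cell cannot be told apart in such bulk libraries.

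Bmpr1a transcript (mm9 chromosome 14, 35223828 to 35316539, locus XLOC_012585) was at 42.2 and 37.1 FPKM in WT and 39.9 and 37.99 FPKM in KO (log2 difference -0.023, SE 0.15, limma adjusted p = 0.948). A value over the whole gene does not test the removal of a part of it and does not check the labels. Markers of the bulb matrix were present in every library, with the ligand gene Shh between 19.6 and 72.8 FPKM, the Wnt effector Lef1 between 36.8 and 68.9 FPKM and the proliferation gene Mki67 between 50.5 and 83.6 FPKM. The libraries also held transcripts of differentiating layers, among them Krt35 of the hair shaft and Krt71 and Krt25 of the inner root sheath. All of these were above 1000 FPKM in each WT library.

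In the KO bulbs, keratins of the hair shaft and inner root sheath were several-fold lower, while genes of the bulge, the outer root sheath, the isthmus and the basement membrane were higher. Igfbp4, a secreted binding protein that limits insulin-like growth factors (mm9 chromosome 11, 98902558 to 98915706, locus XLOC_005642), was at 18.5 and 17.2 FPKM in WT and 153 and 129.6 FPKM in KO and rose (log2 difference 2.91, SE 0.16, limma adjusted p = 0.0417). Both KO libraries lay far above both WT libraries, and close to each other. Leaving out any 1 of the 4 libraries took Igfbp4 out of the calls, while its log2 difference stayed between 2.79 and 3.03. It also missed the threshold in several settings that kept all 4 libraries. The limma adjusted p was 0.0513 with unnamed loci included and 0.149 with no filter beyond a mean above 0.

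The other 4 marker genes of these bulbs missed the threshold. Bmp2, a BMP ligand, was at 2.84 and 2.98 FPKM in WT and 23.2 and 28.3 FPKM in KO (log2 difference 2.77, limma adjusted p = 0.05603). Lhx2, a LIM homeobox factor of hair follicle stem cells, was at 48.6 and 44.7 FPKM in WT and 152 and 225 FPKM in KO (log2 difference 1.96, limma adjusted p = 0.0917). Both genes were well above WT in each KO library. Krt25, a keratin of the inner root sheath, was at 1258 and 1299 FPKM in WT and 302 and 168 FPKM in KO (log2 difference -2.498, limma adjusted p = 0.1001). Dapl1, a gene of early epithelial differentiation, was at 1362 and 1339 FPKM in WT and 291 and 276 FPKM in KO (log2 difference -2.25, limma adjusted p = 0.0734). In neither gene did the KO libraries come near the WT range. The plot of receptor, marker and target transcripts shows these values for each library.

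**Figure D1:**
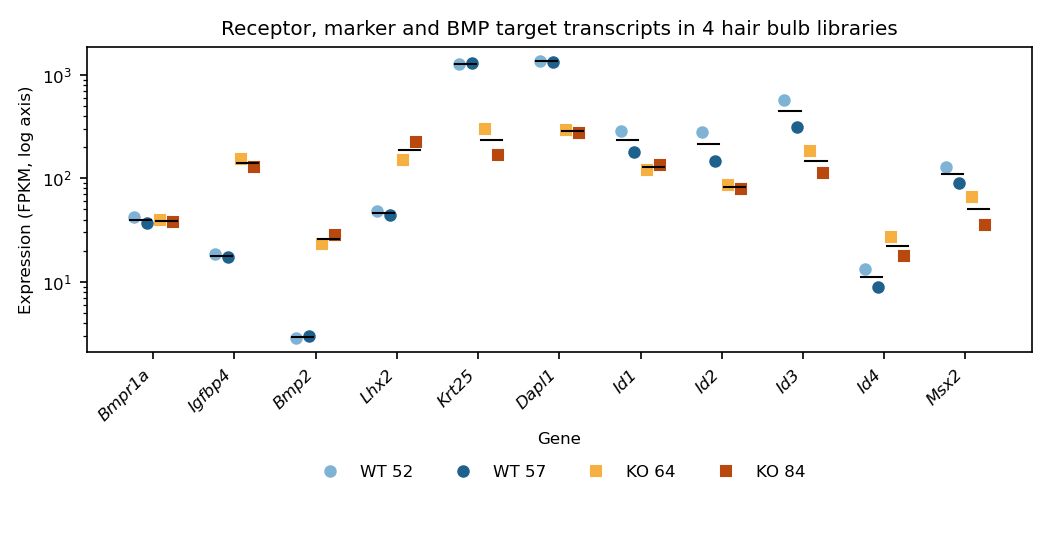
Expression of Bmpr1a, the 5 marker genes, Id1 to Id4 and Msx2 in the 4 libraries (vertical axis, FPKM on a log scale). Circles are WT and squares KO libraries, and bars are group means (n = 2 each). Bmpr1a lies between 37.1 and 42.2 FPKM in all libraries, while Igfbp4, Bmp2 and Lhx2 lie higher and Krt25, Dapl1, Id1, Id2, Id3 and Msx2 lower in both KO libraries.

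The promoters of genes on both sides of this split are shown because the keratin genes were lower together in KO and the basement membrane genes higher together. Each sequence is the 250 bases before the annotated start, 5′ to 3′ on the gene's strand, from RefSeq on build GRCm38.p6, not the mm9 build of the expression table. Capitals mark TATAAA, the core of the TATA box; CTTTGA, the core of the motif bound by Lef1 and its relatives; and GGCGCC, a GC-rich motif bound by BMP-activated Smads. All were searched on both strands.
Igfbp4, chr11:99040994-99041243, plus strand: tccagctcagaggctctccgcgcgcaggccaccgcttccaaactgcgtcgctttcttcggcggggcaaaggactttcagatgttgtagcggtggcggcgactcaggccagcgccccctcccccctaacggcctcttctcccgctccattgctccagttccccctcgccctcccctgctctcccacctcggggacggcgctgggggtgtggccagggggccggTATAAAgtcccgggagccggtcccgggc
Dapl1, chr2:59484403-59484652, plus strand: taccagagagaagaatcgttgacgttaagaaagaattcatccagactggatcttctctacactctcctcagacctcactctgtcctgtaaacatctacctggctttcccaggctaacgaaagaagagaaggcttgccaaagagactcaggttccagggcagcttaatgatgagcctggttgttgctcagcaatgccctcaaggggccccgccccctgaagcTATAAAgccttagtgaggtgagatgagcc
Krt25, chr11:99322952-99323201, minus strand: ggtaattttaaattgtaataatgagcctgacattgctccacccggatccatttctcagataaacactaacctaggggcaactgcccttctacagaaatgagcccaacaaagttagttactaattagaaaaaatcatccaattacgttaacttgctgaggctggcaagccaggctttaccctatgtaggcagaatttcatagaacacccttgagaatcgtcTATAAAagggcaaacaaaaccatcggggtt
Krt71, chr15:101743098-101743347, minus strand: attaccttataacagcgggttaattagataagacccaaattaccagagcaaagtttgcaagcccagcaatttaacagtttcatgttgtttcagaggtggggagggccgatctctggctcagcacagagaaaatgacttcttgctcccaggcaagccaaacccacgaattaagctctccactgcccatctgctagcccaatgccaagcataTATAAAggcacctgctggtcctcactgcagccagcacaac
Krt31, chr11:100050552-100050801, minus strand: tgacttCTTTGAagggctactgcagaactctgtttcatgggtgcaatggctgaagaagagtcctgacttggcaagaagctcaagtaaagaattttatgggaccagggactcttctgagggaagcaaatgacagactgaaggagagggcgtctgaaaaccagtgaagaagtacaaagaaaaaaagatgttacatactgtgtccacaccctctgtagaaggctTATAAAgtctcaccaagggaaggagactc
Col4a1, chr8:11312827-11313076, minus strand: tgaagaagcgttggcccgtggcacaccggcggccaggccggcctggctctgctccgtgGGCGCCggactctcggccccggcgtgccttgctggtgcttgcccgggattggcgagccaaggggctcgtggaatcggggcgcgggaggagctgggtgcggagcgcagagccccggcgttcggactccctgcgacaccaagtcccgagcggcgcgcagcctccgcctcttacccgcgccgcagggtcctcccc
TATAAA began 28 bases before the start in Igfbp4, 29 in Dapl1 and Krt31, 30 in Krt25 and 40 in Krt71. CTTTGA began 244 bases before the start in Krt31, and GGCGCC 192 bases before the start in Col4a1. Of the 18 tested keratins of shaft and inner root sheath, 13 had a promoter window in RefSeq, and TATAAA was found in 11 of these 13 windows, CTTTGA in 5 and GGCGCC in 0. Of the 14 basement membrane genes, 10 had a total of 13 windows, with TATAAA in 0, CTTTGA in 0 and GGCGCC in 5. Among all 32851 windows, 12.4% held TATAAA, 13.8% CTTTGA and 9.59% GGCGCC. A match describes letters in this window and does not show that a factor binds there.

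Across all 13565 loci, 9 passed an adjusted p of 0.05 (limma, 0.0663% of loci): 5 rose (0.0369%) and 4 fell (0.0295%). Of the 9, 7 were listed at exactly 0 in both libraries of a group, and Igfbp4 was not. The 7 were the mitochondrial mt-Co1, Gm11084 and AC132367.1, listed at 0 in WT, and Snord55, Mir3100, Snord85 and CT010479.2, listed at 0 in KO. An exact 0 in this table can be a failed estimate, since mt-Co1, a gene of every respiring cell, was at 0 in both WT libraries and at 5946 and 5271 FPKM in KO. At an unadjusted p under 0.05 there were 2358 loci, and with 2 libraries a group an exact permutation test of any gene cannot go below p = 0.333. Genes are therefore described by whether the groups overlapped. Both KO libraries lay above both WT libraries at 3642 loci (26.8%) and below them at 3737 (27.5%). With group means also differing at least 2-fold, 1213 loci were above (8.94%) and 256 below (1.89%), counts that were 824 and 383 after quantile normalization. The 2-fold counts below use group means in this way unless 1 KO library is named. Of the 1213, 909 had a WT mean under 5 FPKM. KO 64 exceeded KO 84 at least 2-fold at 507 of the 1213 loci, and KO 84 exceeded KO 64 at 68. With KO 84 as the only KO library, 728 of the 1213 and 231 of the 256 were still 2-fold outside both WT values. With WT 57 as the only WT library, 1123 and 211 were.

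**Figure D2:**
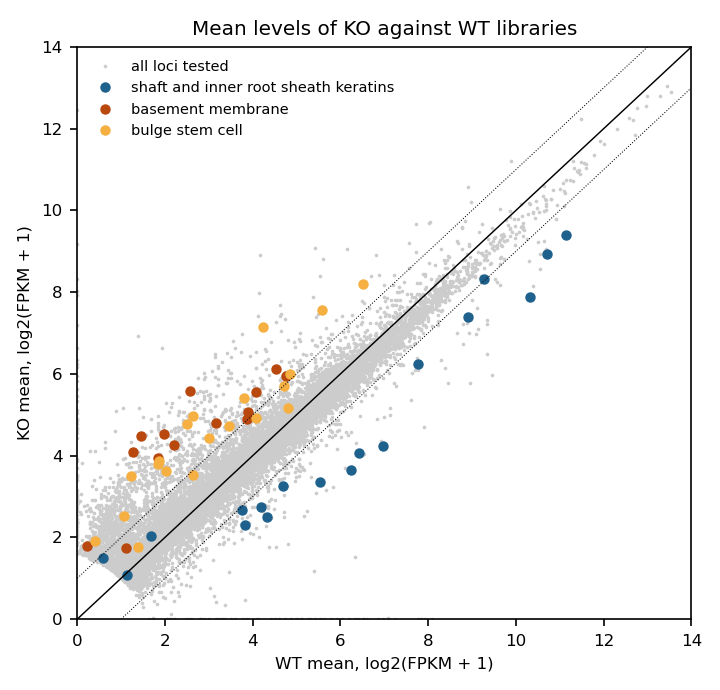
Mean log2(FPKM + 1) of the KO libraries (vertical axis) against the WT libraries (horizontal axis) for all loci tested (grey), with the keratins of shaft and inner root sheath, the basement membrane genes and the bulge genes in colour. The solid line marks equal levels and the dotted lines a 2-fold difference; 5 loci lie outside the axes. Most keratins lie below the lower dotted line, and 13 of 14 basement membrane genes lie above WT by at least 2-fold.

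Genes were grouped in 45 lists by role, with 438 of their 514 genes tested. Igfbp4 was the only list member to pass the adjusted threshold, so the lists are described by their counts and medians beside those of all loci, whose median difference was -0.03. The plot of gene lists shows every tested member of 15 of them.

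**Figure D3:**
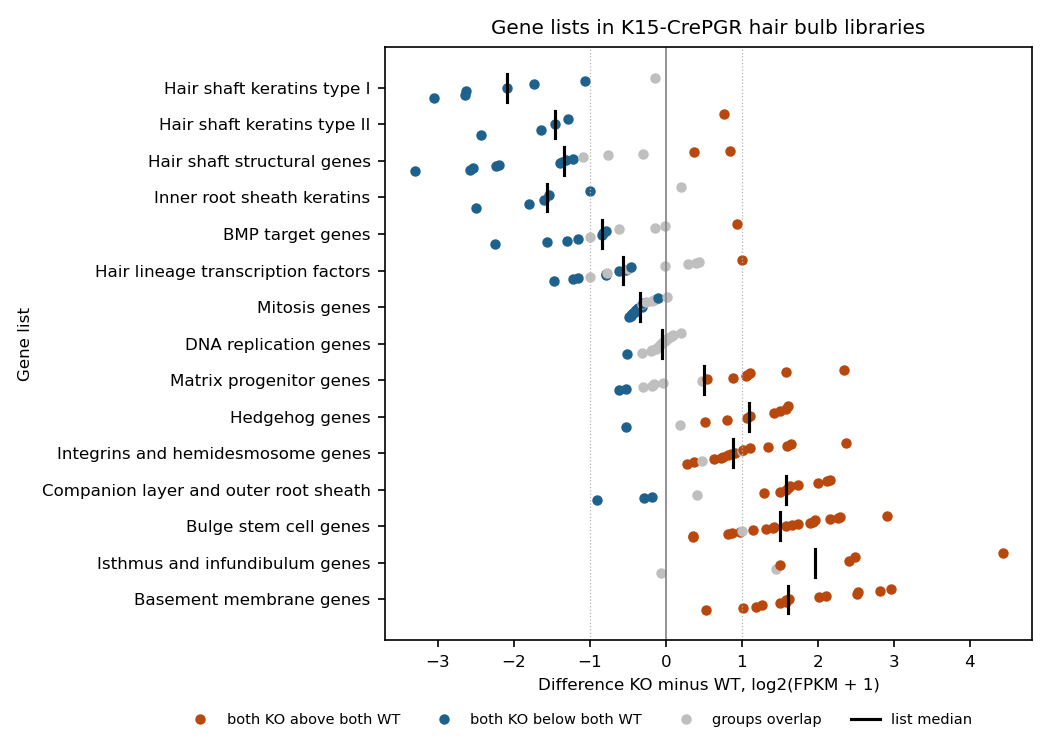
Difference KO minus WT on the log2(FPKM + 1) scale for each tested member of 15 gene lists (horizontal axis), with the list median as a bar. Colour shows whether both KO libraries lay above or below both WT libraries, and dotted lines mark 2-fold. Shaft and inner root sheath keratins have medians between -2.09 and -1.46, and the bulge, isthmus and basement membrane lists between 1.503 and 1.957.

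Within the BMP pathway, ligands and antagonists tended to be higher while most targets were lower. Of 5 ligands tested 3 were above WT in both KO libraries, against 26.8% of all loci, and 1 was below (median log2 difference 0.50). Bmp4, a ligand of bulb and papilla, was at 29.5 and 27.4 FPKM in WT and 38.7 and 66.5 FPKM in KO (log2 difference 0.81), and Bmp7 at 41.7 and 33.1 FPKM in WT and 47.01 and 59.8 FPKM in KO (0.5). Bmp8a went the other way, at 9.08 and 10.8 FPKM in WT and 4.45 and 2.55 FPKM in KO (-1.31). Bmp2, given above, had the largest difference of the ligands, and no ligand overlapped between groups except Bmp6. The 5 receptors, Bmpr1a included, had differences between -0.06 and 0.38 and the 3 Smads of the pathway between -0.04 and 0.23, so neither the receptors nor the signal transducers differed 2-fold. Among the receptors, the type II receptor Bmpr2 (16.5 and 15.1 FPKM in WT and 20.4 and 18.7 FPKM in KO) and the type I receptor Acvr1 (11.7 and 11.95 FPKM in WT and 14.2 and 17.4 FPKM in KO) lay slightly above WT in both KO libraries.

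Of 5 antagonists 4 were above WT in both KO libraries (26.8% of all loci were), and the remaining member, Sostdc1, overlapped (median 0.67). Nbl1, a secreted antagonist of the DAN family, was at 5.15 and 4.81 FPKM in WT and 23.8 and 22.4 FPKM in KO (log2 difference 2.01, SE 0.14, limma adjusted p = 0.0597). Twsg1, which binds BMPs in the extracellular space, was at 26.5 and 21.8 FPKM in WT and 35.9 and 33.1 FPKM in KO (0.503). Bmper was at 5.69 and 3.92 FPKM in WT and 6.35 and 10.4 FPKM in KO (0.67), and Fst, an antagonist of activins and BMPs, at 4.09 and 3.98 FPKM in WT and 11.5 and 4.12 FPKM in KO (0.67), with KO 84 barely above WT. Nbl1 was thus the only antagonist with a 2-fold difference, and it barely varied between the libraries of a group. The antagonist genes Nog, Grem1, Chrd and Chrdl1 had means under 1 FPKM and were not tested.

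Of 12 BMP targets 7 were below WT in both KO libraries (27.5% of all loci were), 4 of them at least 2-fold (1.89% of all loci), and 1 was above, with a median difference of -0.83. Dapl1, one of the marker genes given above, was counted among the 7 and the 4 and was the lowest of the list (log2 difference -2.25). The list was written with earlier results of these data known, so its counts with Dapl1 are not independent of that choice. Id3 was at 573 and 315 FPKM in WT and 184 and 112 FPKM in KO (log2 difference -1.56, SE 0.41), Id2 at 281 and 148 FPKM in WT and 86.7 and 78.8 FPKM in KO (-1.29, SE 0.35) and Id1 at 289 and 178 FPKM in WT and 119.6 and 136 FPKM in KO (-0.83, SE 0.28). WT 52 was higher than WT 57 in each, so the gap to the nearest KO library was smaller than the difference of means. Id4 was higher, at 13.4 and 8.82 FPKM in WT and 26.9 and 17.7 FPKM in KO (0.94). The homeobox gene Msx2 was at 129.5 and 90.3 FPKM in WT and 65.5 and 35.3 FPKM in KO (-1.15), whereas Msx1 overlapped at 64.9 and 51.8 FPKM in WT and 54.2 and 14.7 FPKM in KO (-1.002). The pseudoreceptor Bambi was at 29 and 21.6 FPKM in WT and 19.6 and 9.25 FPKM in KO (-0.84) and the homeobox gene Dlx3 at 194 and 180.1 FPKM in WT and 129 and 90.9 FPKM in KO (-0.78). Adjusted p-values (limma) of these genes ran from 0.206 for Id3 to 0.455 for Msx1. With KO 84 alone, 10 of the 12 targets lay below both WT libraries and 8 at least 2-fold (37.9% of all loci lay below, and 407 of the 13565 at least 2-fold), and the median was -1.29. With KO 64 alone, 8 were below and 3 at least 2-fold (44.9% and 2.27% of all loci), and the median was -0.44.

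Transcripts of the hair shaft were among the lowest in KO relative to WT. Of 7 type I shaft keratins 6 were below WT without overlap and at least 2-fold (median log2 difference -2.09), and of 5 type II partners 4 were (median -1.46), against 1.89% of all loci. With KO 64 alone 5 of the 7 lay 2-fold below both WT libraries, and with KO 84 alone 6. Krt35, the most abundant shaft keratin and one of the earliest made, was at 2519 and 2028 FPKM in WT and 733 and 624 FPKM in KO (log2 difference -1.74, SE 0.24, limma adjusted p = 0.109). Krt36 was at 84.1 and 64.1 FPKM in WT and 15.05 and 7.995 FPKM in KO (-2.63, SE 0.34), and Krt31, a keratin of the cortex, at 112 and 138 FPKM in WT and 29.3 and 6.53 FPKM in KO (-3.05, SE 0.70). Krt33a was at 78.2 and 90.8 FPKM in WT and 25.6 and 6.07 FPKM in KO (-2.64) and Krt33b at 24.3 and 13.7 FPKM in WT and 8.001 and 1.28 FPKM in KO (-2.09), a pair of close copies whose reads could have been shared. KO 84 lay far under KO 64 in Krt31, Krt33a and Krt33b, and close to it in Krt35. The cuticle keratins Krt32 (14.3 and 10.6 FPKM in WT and 6.06 and 4.74 FPKM in KO) and Krt82 (14.01 and 12.3 FPKM in WT and 5.79 and 2.01 FPKM in KO) differed less, by -1.06 and -1.64. Among the type II keratins, Krt83 was at 54.8 and 36.1 FPKM in WT and 15.1 and 3.41 FPKM in KO (-2.43) and Krt86 at 26.8 and 23.1 FPKM in WT and 9.54 and 7.42 FPKM in KO (-1.46), the latter with KO libraries close together. Krt34 overlapped and Krt84, at 0.5296 and 0.483 FPKM in WT and 2.95 and 0.6501 FPKM in KO, lay above WT. Summed over the 7 type I keratins the level was 2833 and 2346 FPKM in WT and 819 and 651 FPKM in KO.

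Of 14 other structural genes of the shaft 9 were at least 2-fold below WT, with none 2-fold above (1.89% and 8.94% of all loci). Their median was -1.34. The keratin-associated proteins, which crosslink keratin filaments, were far apart between the KO libraries: Krtap7-1 was at 373 and 328 FPKM in WT and 95.3 and 12.1 FPKM in KO (log2 difference -3.304, SE 0.99). Krtap8-1 was at 477 and 409 FPKM in WT and 180.4 and 31.1 FPKM in KO (-2.54), and Krtap11-1 at 122 and 103 FPKM in WT and 51.5 and 5.93 FPKM in KO (-2.57). KO 84 had less of each than KO 64, and KO 64 less than either WT library. The calcium-binding S100a3, abundant in the cuticle, was at 623 and 459 FPKM in WT and 166 and 81.7 FPKM in KO (-2.19), Selenbp1 at 404 and 263 FPKM in WT and 77.7 and 60.8 FPKM in KO (-2.23), and Dsg4, the desmosomal cadherin of the shaft, at 35.5 and 30.3 FPKM in WT and 15.5 and 9.37 FPKM in KO (-1.37). The crosslinking enzyme Tgm3 was at 30.1 and 34.3 FPKM in WT and 20.97 and 7.11 FPKM in KO (-1.31). In KO 84 on its own 11 of the 14 lay 2-fold below WT, and with KO 64 alone 7.

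The transcription factors of these lineages differed by less than their keratins. Of 16 factors 8 were below WT in both KO libraries (27.5% of all loci were), 3 of them at least 2-fold (1.89%). Prdm1 alone was above (26.8% of all loci were), and the median was -0.57. Dlx4 was at 27.1 and 33.8 FPKM in WT and 15.3 and 6.84 FPKM in KO (log2 difference -1.47), and Ovol1, a zinc finger repressor, at 72.8 and 53.2 FPKM in WT and 25.7 and 26.8 FPKM in KO (-1.21, limma adjusted p = 0.123). Hoxc13, an activator of shaft keratin genes, overlapped at 144 and 83.6 FPKM in WT and 89.9 and 45.01 FPKM in KO (-0.78). Lef1 was at 68.9 and 64.1 FPKM in WT and 50.2 and 36.8 FPKM in KO (-0.62), and Foxn1, the nude gene, which acts in the differentiating shaft, at 25.2 and 23.7 FPKM in WT and 16.5 and 18.8 FPKM in KO (-0.45). Prdm1, the factor above WT, was low throughout at 1.27 and 1.79 FPKM in WT and 7.21 and 2.13 FPKM in KO (1.01). With KO 84 alone 12 of the 16 lay below both WT libraries and 8 of them 2-fold, while with KO 64 alone 9 and 1 did.

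Most keratins of the inner root sheath were lower, and the other genes of that layer lay on both sides of WT. Of 6 keratins tested 5 were below WT in both KO libraries and 4 at least 2-fold (27.5% and 1.89% of all loci), with a median of -1.57. Krt71, the main type II keratin of the sheath, was at 1632 and 1711 FPKM in WT and 552 and 419.7 FPKM in KO (log2 difference -1.79, SE 0.23, limma adjusted p = 0.0992). Krt73 was at 486 and 473 FPKM in WT and 139 and 196 FPKM in KO (-1.53), Krt27 at 212 and 221 FPKM in WT and 102 and 48.7 FPKM in KO (-1.603) and Krt28 at 566 and 676 FPKM in WT and 243 and 396 FPKM in KO (-0.99). Together with Krt25 they summed, over the 6 keratins, to 4155 and 4382 FPKM in WT and 1342 and 1230 FPKM in KO. Taking KO 84 by itself, all 6 lay below WT (37.9% of all loci did), and with KO 64 alone 5 (44.9% of all loci). Krt26, the member that overlapped, was low in every library.

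Of 11 other genes of the inner root sheath 5 lay below WT, 4 of them at least 2-fold (1.89% of all loci), and 4 above, all at least 2-fold (8.94% of all loci), with a median of -0.10. With KO 84 alone 6 lay 2-fold below both WT libraries (median -1.03), and with KO 64 alone 2 (median -0.32). Tchh, trichohyalin, the granule protein that fills sheath cells, was at 127 and 181 FPKM in WT and 89.2 and 12.7 FPKM in KO (log2 difference -2.12, SE 0.95), with KO 84 far below KO 64. Prr9 was at 181 and 96.8 FPKM in WT and 55.8 and 14.4 FPKM in KO (-2.17), the transglutaminase Tgm1 at 11.7 and 11.1 FPKM in WT and 5.77 and 2.82 FPKM in KO (-1.28) and the desmocollin Dsc1 at 41.99 and 39.2 FPKM in WT and 17.3 and 19.4 FPKM in KO (-1.11, limma adjusted p = 0.0992). The protease cathepsin L gene Ctsl was at 46.4 and 43.6 FPKM in WT and 129 and 107 FPKM in KO (1.37, limma adjusted p = 0.0918), and the protease inhibitor gene Cst6 at 6.55 and 3.64 FPKM in WT and 16.7 and 14.9 FPKM in KO (1.503). These last 2 genes were above WT in both KO libraries, as was the cornified envelope precursor Sprr1a at 25.5 and 14.1 FPKM in WT and 57.1 and 29.1 FPKM in KO (1.06).

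Most genes of the outer root sheath, a list that includes the companion layer, were higher. Of 13 tested, 9 lay above WT without overlap and at least 2-fold, against 8.94% of all loci, and 3 lay below by less than 2-fold (median 1.58). The basal keratins Krt5, at 447 and 505 FPKM in WT and 1159 and 1867 FPKM in KO (log2 difference 1.63), and Krt14, at 139 and 84.03 FPKM in WT and 405 and 556 FPKM in KO (2.12), form the filaments of undifferentiated keratinocytes. Krt6a was at 14.2 and 10.1 FPKM in WT and 38.6 and 67.8 FPKM in KO (2.01), Krt17 at 291 and 223 FPKM in WT and 537 and 1122 FPKM in KO (1.602) and Krt16 at 3.35 and 2.59 FPKM in WT and 8.15 and 14.2 FPKM in KO (1.58). KO 84 exceeded KO 64 in each of these keratins. Krt75 of the companion layer overlapped at 108 and 74.6 FPKM in WT and 102 and 141 FPKM in KO (0.41). Sox21 was at 84.6 and 46.8 FPKM in WT and 34.99 and 31.5 FPKM in KO (-0.902), and the connexins Gja1 and Gjb2 differed by -0.28 and -0.18, turning to 0.11 and 0.12 after quantile normalization. These were the 3 members below WT, whereas the connexin Gjb6 was at 23.2 and 39.2 FPKM in WT and 61.6 and 92.5 FPKM in KO (1.297). Barx2, a homeobox gene of the outer sheath, was at 8.74 and 4.77 FPKM in WT and 20.04 and 20.4 FPKM in KO (1.503).

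Of 20 bulge stem cell genes 19 lay above WT in both KO libraries and 14 at least 2-fold (26.8% and 8.94% of all loci). None lay below (27.5% of all loci), and the median was 1.503. Lgr5, a receptor for R-spondins that marks the stem cells of the lower bulge and outer sheath, was at 3.69 and 5.56 FPKM in WT and 26.1 and 26.2 FPKM in KO (log2 difference 2.29, SE 0.21, limma adjusted p = 0.0866). Sox9, a factor of bulge and outer sheath, was at 4.21 and 1.02 FPKM in WT and 12.5 and 14.6 FPKM in KO (2.16), and Krt15, whose promoter drives the Cre, at 62.5 and 118 FPKM in WT and 246 and 341 FPKM in KO (1.74). The matrix ligand Npnt was at 0.952 and 1.76 FPKM in WT and 8.53 and 12.2 FPKM in KO (2.27), and the vitamin D receptor Vdr at 26.5 and 29.3 FPKM in WT and 63.05 and 63.2 FPKM in KO (1.15). The factors Nfib (0.36) and Nfix (0.98) were closer to WT. Cd34, at 4.32 and 6.17 FPKM in WT and 50.9 and 9.77 FPKM in KO (1.94), a marker shared by bulge cells, vessels and fibroblasts, was high in KO 64 and much nearer to WT in KO 84. With KO 84 alone 19 of the 20 stayed above both WT libraries and 12 at least 2-fold (40.9% and 7.21% of all loci), with a median of 1.13. With KO 64 alone all 20 were above and 18 at least 2-fold (37.4% and 11.5% of all loci), with a median of 1.83. The quiescent-bulge genes Nfatc1, Krt24, Fgf18 and Angptl7 had means under 1 FPKM and were not tested.

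Of 6 genes of the isthmus and infundibulum 4 lay at least 2-fold above WT, against 8.94% of all loci, and none below (median 1.96). Krt79, a keratin of infundibulum and sebaceous duct, had the largest difference of the tested list members, at 19.1 and 14.7 FPKM in WT and 189 and 768 FPKM in KO (log2 difference 4.43, SE 0.71, limma adjusted p = 0.118), far higher in KO 84 than in KO 64. The stem cell markers Lgr6, at 3.88 and 5.84 FPKM in WT and 36.1 and 27.2 FPKM in KO (2.49, limma adjusted p = 0.0866), and Lrig1, at 6.098 and 4.21 FPKM in WT and 31.6 and 31.1 FPKM in KO (2.41, limma adjusted p = 0.0779), were close between the KO libraries. Sebaceous genes were mixed: of 11, 7 lay above WT and 2 below (26.8% and 27.5% of all loci). Of these, 3 and 2 differed at least 2-fold (8.94% and 1.89% of all loci). Fa2h, an enzyme of sebum lipids, was at 0.513 and 0.198 FPKM in WT and 8.52 and 3.04 FPKM in KO (2.203), and Cidea, a lipid droplet protein, at 0.2601 and 0.161 FPKM in WT and 3.91 and 2.28 FPKM in KO (1.73). The fatty acid-binding protein Fabp5, at 1398 and 1580.0 FPKM in WT and 369.8 and 615 FPKM in KO (-1.64), and Mgst1, at 726 and 792 FPKM in WT and 311 and 296 FPKM in KO (-1.32), both abundant beyond the gland, were lower. Pparg, the regulator of sebocytes, had a mean under 1 FPKM.

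All 14 basement membrane genes lay above WT in both KO libraries, 13 of them at least 2-fold (26.8% and 8.94% of all loci), with a median of 1.61. The collagen IV chains, which form the sheet of the membrane, were low in WT: Col4a1 was at 4.54 and 5.31 FPKM in WT and 58.6 and 34.8 FPKM in KO (log2 difference 2.97, SE 0.29, limma adjusted p = 0.0866), and Col4a2 at 2.59 and 3.24 FPKM in WT and 28.1 and 16.4 FPKM in KO (2.53, SE 0.30, limma adjusted p = 0.0882). Chains of laminin-332, the laminin that anchors keratinocytes, were higher together. Lama3 was at 2.98 and 2.13 FPKM in WT and 11.7 and 17.3 FPKM in KO (2.11) and Lamb3 at 1.54 and 1.25 FPKM in WT and 13.4 and 18.6 FPKM in KO (2.81, limma adjusted p = 0.0734). Both were higher in KO 84 than in KO 64. The laminin chains Lamb1 (12.3 and 19.2 FPKM in WT and 50.9 and 40.6 FPKM in KO, 1.503) and Lamc1 (12.1 and 15.1 FPKM in WT and 34.3 and 23.4 FPKM in KO, 1.01) were higher in KO 64 than in KO 84. Nid1, a linker of laminin and collagen IV, differed widely between the KO libraries, at 1.55 and 1.93 FPKM in WT and 37.2 and 5.38 FPKM in KO (2.51), and the proteoglycans Agrn (18.02 and 25.9 FPKM in WT and 73.7 and 64.2 FPKM in KO, 1.63) and Hspg2 (6.43 and 9.43 FPKM in WT and 35.2 and 18.3 FPKM in KO, 1.59) were higher too. With KO 84 alone all 14 stayed above both WT libraries and 12 at least 2-fold (40.9% and 7.21% of all loci). Summed endothelial markers (10.9 and 9.96 FPKM in WT, 71.7 and 23.6 FPKM in KO) and fibroblast markers were higher alongside this list, and their part in it was not tested.

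Of 16 integrin and hemidesmosome genes 14 lay above WT, 6 at least 2-fold (26.8% and 8.94% of all loci), with a median of 0.88. Itgb4, the hemidesmosomal integrin chain that binds laminin-332, was at 3.66 and 6.91 FPKM in WT and 23.3 and 13.97 FPKM in KO (log2 difference 1.65), and the linker Dst at 2.84 and 2.697 FPKM in WT and 15.2 and 6.97 FPKM in KO (1.59). Itgb1, the common chain of many integrins, was at 41.4 and 43.1 FPKM in WT and 83.7 and 61.3 FPKM in KO (0.75). Thbs1, a matricellular protein, was at 8.77 and 5.099 FPKM in WT and 63.04 and 23.9 FPKM in KO (2.37) and Tnc at 2.98 and 3.46 FPKM in WT and 12.3 and 7.61 FPKM in KO (1.34). Col17a1, the hemidesmosomal collagen, overlapped at 7.37 and 12.6 FPKM in WT and 40.95 and 9.86 FPKM in KO (0.999), since KO 84 lay between the WT libraries.

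Signals of the matrix beyond BMP were partly higher. Of 10 hedgehog genes 8 lay above WT, 6 at least 2-fold, and 1 below (26.8%, 8.94% and 27.5% of all loci), with a median of 1.09. The ligand Shh was at 19.6 and 19.8 FPKM in WT and 50.5 and 72.8 FPKM in KO (log2 difference 1.58, SE 0.22), its receptor and target Ptch1 at 19.3 and 28.2 FPKM in WT and 47.7 and 52.5 FPKM in KO (1.07) and the target factor Gli1 at 19.1 and 29.96 FPKM in WT and 45.3 and 61.6 FPKM in KO (1.11). In each of these 3 genes KO 84 exceeded KO 64. Edar, the ectodysplasin receptor, was at 2.55 and 5.94 FPKM in WT and 18.4 and 31.7 FPKM in KO (2.34) and the cadherin Cdh3 at 39.5 and 43.7 FPKM in WT and 76.9 and 77.4 FPKM in KO (0.88). Of the 14 matrix progenitor genes, which include Shh, Ptch1, Gli1, Edar and Cdh3, 7 lay above and 2 below (26.8% and 27.5% of all loci), with a median of 0.51.

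Of 19 Wnt genes 8 lay above WT and 4 below (26.8% and 27.5% of all loci; median 0.21), with inhibitors on both sides. The inhibitor Wif1 was at 25.3 and 29.5 FPKM in WT and 96.9 and 57.1 FPKM in KO (log2 difference 1.41), Sfrp1 at 3.43 and 1.697 FPKM in WT and 18.4 and 7.55 FPKM in KO (1.898), and Nkd2, a negative regulator of the cytoplasmic pathway, at 30.96 and 30.1 FPKM in WT and 10.8 and 9.57 FPKM in KO (-1.499, limma adjusted p = 0.0866). The Wnt target Axin2 overlapped at 22.6 and 18.8 FPKM in WT and 19.4 and 17.7 FPKM in KO. Myc was lower, at 54.3 and 31.5 FPKM in WT and 23.2 and 12.4 FPKM in KO (-1.24). Of 12 Notch genes 3 lay above and 4 below, shares near those of all loci (median -0.05). The ligand Jag1 was at 155 and 110.3 FPKM in WT and 79.1 and 54.6 FPKM in KO (-0.98), Jag2 at 15.3 and 24.98 FPKM in WT and 62.2 and 33.05 FPKM in KO (1.17), and the effectors Hes6 at 39.4 and 38.8 FPKM in WT and 17.95 and 14.95 FPKM in KO (-1.21) and Hes5 at 6.31 and 3.503 FPKM in WT and 0.6902 and 0.845 FPKM in KO (-1.7).

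Of 15 TGF-beta genes 11 lay above WT, 8 at least 2-fold, and 2 below (26.8%, 8.94% and 27.5% of all loci), with a median of 1.05. The ligand Tgfb3 was at 0.586 and 0.631 FPKM in WT and 6.29 and 6.905 FPKM in KO (log2 difference 2.24, limma adjusted p = 0.0866) and the target Ctgf at 4.63 and 3.39 FPKM in WT and 20.4 and 16.4 FPKM in KO (1.96, limma adjusted p = 0.0866), both close between the KO libraries. Tgfbi was at 6.56 and 1.41 FPKM in WT and 50.8 and 15.4 FPKM in KO (2.77) and Cyr61 at 21.4 and 10.3 FPKM in WT and 111 and 29.2 FPKM in KO (1.87), both far higher in KO 64. Of 8 genes of insulin-like growth factor signalling 5 lay above and none below (26.8% and 27.5% of all loci), with a median of 1.46. Beside Igfbp4, Igfbp2 was at 1.07 and 0.705 FPKM in WT and 17.8 and 7.81 FPKM in KO (2.78), while Igfbp6 overlapped at 4.998 and 9.36 FPKM in WT and 75.2 and 8.26 FPKM in KO. For KO 84 alone the median of this list was 0.45, and with KO 64 alone 2.28.

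Genes of cell division differed little and in the other direction. Of 20 mitosis genes 14 lay below WT and none above (27.5% and 26.8% of all loci), but none differed 2-fold (median -0.34). Cdk1, the kinase that starts mitosis, was at 208 and 231 FPKM in WT and 159.8 and 162 FPKM in KO (log2 difference -0.44, limma adjusted p = 0.275), Ccnb2 at 66.05 and 78.9 FPKM in WT and 49.9 and 52.8 FPKM in KO (-0.48) and Mki67 at 54.7 and 83.6 FPKM in WT and 52.4 and 50.5 FPKM in KO (-0.39). Of 18 DNA replication genes 17 overlapped between groups, as did 6186 of all 13565 loci (median -0.05). The remaining gene, Tyms, lay below WT, at 121 and 164 FPKM in WT and 97.3 and 101 FPKM in KO (-0.505). Of 19 ribosomal protein genes 12 lay below WT (27.5% of all loci did). Their median was -0.19 for KO 84 alone and -0.74 for KO 64 alone. Rpl18, for one, was at 2272 and 2132 FPKM in WT and 1187 and 1642 FPKM in KO (-0.66). Cdkn2a, which encodes cell cycle inhibitors, was at 0.26 and 0.191 FPKM in WT and 1.77 and 6.34 FPKM in KO (1.88), the only 2-fold difference without overlap among 14 genes of cycle entry and arrest.

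Genes of stressed keratinocytes were higher in 8 of 10, each at least 2-fold, against 8.94% of all loci (median 1.60). This list shares Krt6a, Krt16 and Krt17 with the outer sheath. The chemokine Cxcl1 was at 5.79 and 0.825 FPKM in WT and 35.1 and 7.29 FPKM in KO (log2 difference 2.298) and the alarmin S100a8 at 1.78 and 2.63 FPKM in WT and 12.2 and 5.93 FPKM in KO (1.59). Of 12 cornified epidermis genes 5 lay at least 2-fold above WT (8.94% of all loci) and 1 below (27.5% of all loci), with a median of 1.14. Krt10, a keratin of suprabasal epidermis, was at 21.2 and 10.3 FPKM in WT and 141 and 40.8 FPKM in KO (2.28) and Krtdap at 13.8 and 2.78 FPKM in WT and 80.8 and 23.1 FPKM in KO (2.57). In these epidermal genes WT 52 exceeded WT 57 and KO 64 exceeded KO 84. The summed epithelial markers, among them Krt5, Krt14 and Krt17, were 2518 and 2207 FPKM in WT and 3364 and 5191 FPKM in KO.

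Markers of other cells were higher in the KO libraries, most of all in KO 64. For the counts that follow, 26.8% of all loci lay above WT and 8.94% at least 2-fold above. All 10 immune genes tested lay at least 2-fold above WT (median 2.67), with H2-Aa, a gene of MHC class II, at 14.1 and 5.06 FPKM in WT and 149.98 and 30.3 FPKM in KO. The median difference was 3.89 with KO 64 alone and 1.37 with KO 84 alone. Of the defining markers, Cd3e of T cells and Cd207 of Langerhans cells had means under 1 FPKM. Of 12 fibroblast genes 11 lay at least 2-fold above (median 1.98; 2.94 with KO 64 alone and 1.10 with KO 84 alone), with Col1a1 at 36.8 and 10.5 FPKM in WT and 294 and 46.4 FPKM in KO and Col6a1 at 3.71 and 4.22 FPKM in WT and 67.9 and 16.6 FPKM in KO. Dcn, the most abundant of them, overlapped at 284 and 382 FPKM in WT and 551 and 291 FPKM in KO. Endothelial genes were above in 6 of 8, smooth muscle and pericyte genes in 6 of 7, and Acta2, a contractile actin, was at 6.53 and 4.78 FPKM in WT and 53.1 and 21.1 FPKM in KO. Summed melanocyte markers were 108 and 118 FPKM in WT and 269.6 and 65.9 FPKM in KO, and dermal papilla markers 29.5 and 20.9 FPKM and 73 and 22 FPKM, so in KO 84 both sums lay within or under the WT range. Of the papilla markers Sox2 and Prom1 had means under 1 FPKM. The part of these markers in the epithelial lists above was not tested. Skeletal muscle markers overlapped, at 53.1 and 33.5 FPKM in WT and 44.3 and 35.8 FPKM in KO.

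**Figure D4:**
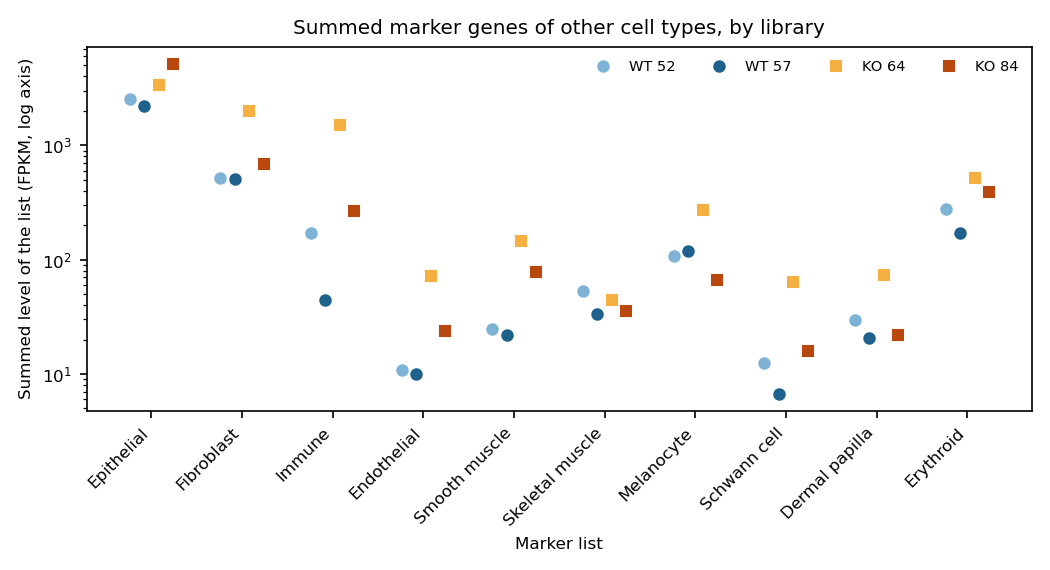
Summed FPKM of marker genes of 10 cell types in each library (vertical axis, log scale), with circles for WT and squares for KO libraries. KO 64 is highest of the 4 in the immune, fibroblast, endothelial, smooth muscle, melanocyte, Schwann cell, dermal papilla and erythroid sums, and KO 84 in the epithelial sum.

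The largest differences without overlap, counting genes that averaged 5 FPKM or more and were never listed at 0, were of several kinds. Beside Krt79, the higher genes included Foxi3, a forkhead factor of hair placodes, at 0.159 and 0.277 FPKM in WT and 7.93 and 24.8 FPKM in KO (log2 difference 3.64), and Frem1, a matrix protein of the epidermal junction, at 0.324 and 0.319 FPKM in WT and 10.1 and 22.6 FPKM in KO (3.61, limma adjusted p = 0.0866). Wnt7a, an epithelial Wnt ligand, was at 0.713 and 0.118 FPKM in WT and 7.57 and 19.03 FPKM in KO (3.24), and Atp6v1b1, a subunit of the vesicular proton pump, at 0.07704 and 0.0664 FPKM in WT and 5.25 and 21.1 FPKM in KO (3.46). All 4 of these were higher in KO 84 than in KO 64. Lcn2, an iron-scavenging protein of inflamed epithelia, was at 1.41 and 1.89 FPKM in WT and 49.3 and 20.2 FPKM in KO (3.63). The myeloid cell genes Ccl9 (14.7 and 1.75 FPKM in WT and 105 and 38.4 FPKM in KO), Retnla (66.1 and 17.2 FPKM in WT and 979 and 108 FPKM in KO) and Fcer1g (2.96 and 0.706 FPKM in WT and 51.99 and 8.101 FPKM in KO) were higher in KO 64 than in KO 84, in the order of the immune markers. The lower genes beside shaft keratins and Krtap genes were metabolic enzymes and crystallins. Carbonic anhydrase Car2 was at 26.1 and 27.9 FPKM in WT and 3.03 and 2.06 FPKM in KO (-2.99, SE 0.20, limma adjusted p = 0.05603), and Fbp1, an enzyme of glucose synthesis, at 63.7 and 48.7 FPKM in WT and 9.396 and 7.48 FPKM in KO (-2.59, limma adjusted p = 0.0734). Crym, which binds thyroid hormone, was at 49.4 and 50.9 FPKM in WT and 13.1 and 2.71 FPKM in KO (-2.82), Cryba4 at 46.2 and 38.5 FPKM in WT and 12.5 and 2.57 FPKM in KO (-2.64) and Selenbp2 at 155 and 84.1 FPKM in WT and 28.5 and 10.6 FPKM in KO (-2.64). Selenbp2 and Selenbp1 are near-identical copies, so how their reads were split is uncertain.

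Beside the Shh-CreER bulbs, where 1 Het and 1 cKO library allow no test, the shaft keratins were lower as well, and the inner root sheath keratins were mixed. The tables were normalized separately and share no control library, and values below are Het then cKO. Of 10880 genes in both tables, the differences correlated at r = 0.322 and rho = 0.368 across genes, which are not independent replicates. Of 1001 genes above WT without overlap and at least 2-fold in K15-CrePGR KO, 131 (13.1%) were at least 2-fold higher in the Shh-CreER cKO library, against 2.25% of all genes, and 22 were at least 2-fold lower. Of 176 below WT, 72 (40.9%) were at least 2-fold lower, against 2.63% of all genes, and 4 at least 2-fold higher. From the other side, 131 of 245 genes 2-fold higher in the Shh-CreER cKO (53.5%) were 2-fold above WT in the K15-CrePGR KO, and 4 (1.63%) were below. Of the 286 lower ones, 72 (25.2%) were 2-fold below WT in the K15-CrePGR KO and 22 (7.69%) above. Among all 10880 genes, 1001 were above and 176 below by this measure.

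All 12 shaft keratins that both tables measure were lower in the Shh-CreER cKO, 11 of them at least 2-fold, with list medians of -2.59 (type I) and -2.61 (type II) beside -2.09 and -1.46 in K15-CrePGR. Krt36, for example, was at 95.5 and 8.65 FPKM (log2 difference -3.32, beside -2.63). The inner root sheath keratins had a median of -0.22 beside -1.57: Krt25 was at 546 and 589.4 FPKM (0.11, beside -2.498) and Krt71 at 186 and 194 FPKM (0.059, beside -1.79). Krt28, at 421 and 254 FPKM (-0.72, beside -0.99), and Krt27, at 137 and 97.3 FPKM (-0.49, beside -1.603), were lower in both deletions. Krt73 was higher, at 479.6 and 794 FPKM (0.73, beside -1.53), and Krt26 was the member at least 2-fold lower, at 7.605 and 1.54 FPKM (-1.76, beside 0.21). BMP targets had a median of -1.34 beside -0.83, with Id1 at 358 and 49.2 FPKM (-2.84, beside -0.83), and hair lineage factors one of -1.49 beside -0.57. The isthmus list had 1.42 beside 1.96, with Lgr6 at 3.92 and 46.6 FPKM, while the bulge list had 0.38 beside 1.503 and the basement membrane list 0.46 beside 1.61. Igfbp4 was higher in both deletions, at 59.6 and 188 FPKM in Shh-CreER (1.64). Car2 was lower in both, at 25.9 and 2.28 FPKM. None of these differences between the deletions was tested, and age, Cre line, control genotype (WT or Het) and library differ between them along with the table.

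**Figure D5:**
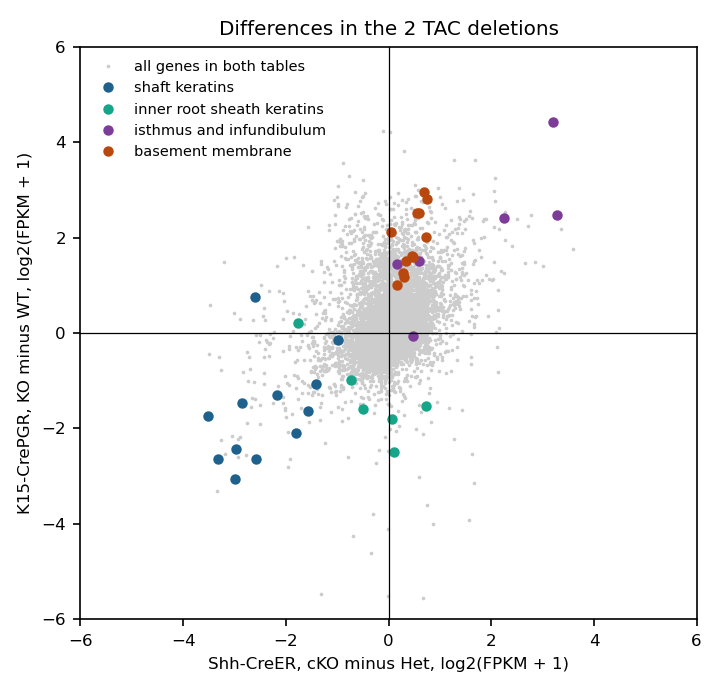
Difference on the log2(FPKM + 1) scale in K15-CrePGR bulbs (KO minus WT, vertical axis) against Shh-CreER bulbs (cKO minus Het, 1 library each, horizontal axis) for 10880 genes. Grey points are all genes and coloured points 4 gene lists; 2 genes lie outside the axes. Shaft keratins lie left of 0 on the horizontal axis, inner root sheath keratins lie on both sides of 0 on the horizontal axis and mostly below 0 on the vertical axis, and basement membrane genes lie above 0 on the vertical axis.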

How the data were processed

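The authors deposited FPKM values per locus, made with TopHat and Cufflinks on mm9 per the submitters' processing notes; versions, strand setting and read numbers are not stated there. FPKM keeps no depth, so no count test or counting interval was used. Libraries were grouped by their labels. Where a symbol had several loci, the locus with the highest mean was kept, and loci with a gene name that averaged 1 FPKM or more over the 4 libraries were tested on log2(FPKM + 1) with limma 3.58.1 (R 4.3.3; moderated test with intensity trend, two-sided, Benjamini-Hochberg adjustment over all loci tested, threshold 0.05). A locus counted as above or below when both KO values lay outside both WT values, and as 2-fold when group means on the log scale also differed by at least 1. On simulated data with 13565 loci and 4 libraries, the test called 1 of 67 loci with a simulated 2-fold difference. It called 39 of 67 at 4-fold and 61 of 66 at 8-fold, and wrongly called 3 others. In the real libraries it called 9 loci, while 243 lay above and 55 below WT without overlap and at least 4-fold. Whether the shares called on simulated data hold for the real libraries was not tested.

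The members and gene lists were chosen with earlier results of these data known. The rule for named genes took Bmpr1a, the 5 marker genes, Id1 to Id4, Msx1, Msx2, Xist and Ddx3y; in each list the members with a mean of at least 5 FPKM in order of difference, up to 6 or, for side lists, 3; up to 12 loci each way past the threshold; and the 10 largest differences each way without overlap. Loci listed at 0 were left out of the last 3 parts. The loci past the threshold that are listed at 0, and Agrn, Axin2, Bambi, Barx2, Bmp6, Cdk1, Cdkn2a, Cidea, Dcn, Fa2h, Foxn1, Gja1, Gjb2, Hes5, Hoxc13, Hspg2, Itgb1, Krt16, Krt26, Krt34, Krt75, Krt84, Lamb1, Lamc1, Mki67, Myc, Nfib, Nfix, Prdm1, S100a8, Sox21, Sprr1a, Tgfb3, Tgm3 and Vdr, were named after their values were seen. Some genes that the rule names are not reported here. Promoter windows came from RefSeq by symbol, without those on chromosome 18. The alternatives changed the pseudocount, the filter, the scaling, the variance model, the loci included or left out 1 library. Tables were made with pandas 2.3.3 and numpy 2.4.6 under Python 3.11.15, and figures with matplotlib 3.10.9.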

Additional observations from a re-analysis of the deposited data

Results flagged for a closer look

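Among the named genes, 11 differed without overlap and at least 2-fold in K15-CrePGR and went at least 1.5-fold the other way in the single Shh-CreER cKO library; the difference between the deletions was not tested for any of them. On the log2(FPKM + 1) scale, Lhx2 was 1.96 in K15-CrePGR and -0.94 in Shh-CreER. The inner root sheath genes Krt73 and Tchh were lower in the first, by -1.53 and -2.12, and higher in the second, by 0.73 and 0.67. Nkd2 differed by -1.499 and 0.595. Krt16 differed by 1.58 and -0.86, S100a8 by 1.59 and -1.84, and Prdm1 by 1.01 and -2.48. Of the genes of other cell types, Acta2 differed by 2.39 and -0.77, the melanocyte gene Mlana by 1.44 and -0.76, and the myeloid cell genes Ccl9 and Fcer1g by 3.30 and -0.76 and by 3.08 and -0.98. Bmper and Krt84, whose K15-CrePGR groups did not overlap but differed by less than 2-fold, were at 0.67 and -2.04 and at 0.76 and -2.61.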

How the results depend on the processing

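With 2 libraries a group and unknown depth, calls depended on the processing more than directions did. Of the loci called (limma, 5 higher and 4 lower), a pseudocount of 0.1 gave 13 and 8, and a pseudocount of 5 gave 3 higher. A mean of at least 5 FPKM gave 9 higher, no filter 2 higher, and no intensity trend 3 higher. Leaving out loci listed at 0 gave 0 and 0 (2490 at an unadjusted p under 0.05), including unnamed loci 9 lower, and leaving out small RNA loci 9 and 2. Leaving out 1 library gave 0 to 18 higher and 0 to 7 lower, with 0 calls without WT 52 or WT 57 (916 and 944 loci at an unadjusted p under 0.05); the lone library is then assumed to vary like the other group. Where the call was lost, limma adjusted p ran from 0.0513 to 0.508 for Igfbp4. Bmp2, Car2 and Nbl1 gained the call under some settings, Bmp2 with adjusted p = 0.0355 (limma, pseudocount 0.1). The 2-fold counts of 1213 above and 256 below were 456 and 144 with a pseudocount of 5. There were 598 above with a mean of at least 5 FPKM, 416 below with unnamed loci, and 308 to 407 below with 1 library left out. List medians moved beyond the spread as follows. BMP ligands had 0.29 without a filter, inner root sheath keratins -1.65 with median scaling and -1.34 after quantile normalization, and other inner root sheath genes -0.56 when averaging 5 FPKM or more. The outer root sheath had 1.19 with a pseudocount of 5, and the isthmus 1.45 with it, 2.41 for genes averaging 5 FPKM or more and 1.503 without a filter. With 1 library left out the medians ran from -0.0057 to 0.19 for BMP receptors, 0.54 to 1.31 for antagonists, -1.29 to -0.44 for BMP targets and -0.93 to -0.36 for hair lineage factors. They ran from -3.05 to -1.62 for type I shaft keratins, -1.64 to -1.47 for inner root sheath keratins, -1.03 to -0.15 for other inner root sheath genes and 1.21 to 1.94 for the outer root sheath. The median over all loci was -0.03, -0.10 with median scaling and -0.08 after quantile normalization.

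Signs turned in genes near 0. After quantile normalization Bmpr1a was at 0.042, Bmp6 at -0.34, Gja1 at 0.11, Gjb2 at 0.12 and Krt26 at -0.15. With 1 library left out, Bmpr1a ran from -0.11 without WT 57 to 0.067 without WT 52, and Ddx3y from -4.35 to 0.31 by the same omissions. From the omission of KO 64 to that of KO 84, Bmp6 ran from -0.42 to 0.57, Dcn from -0.18 to 0.74, Krt26 from -0.47 to 0.88 and Krt34 from -0.66 to 0.38. The cause was not tested. The correlation with Shh-CreER ran from 0.290 to 0.368 over its alternatives. No paired analysis was possible because the WT and KO libraries share no replicate numbers.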

Other observations

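Counts of some other gene groups follow. Of all loci, 26.8% lay above WT and 27.5% below, and 6186 of 13565 overlapped. Of 18 connexin and desmosome genes 8 lay below WT and 4 above, with a median log2 difference of -0.10. Of 12 immediate early genes, which respond rapidly to stimulation, 11 overlapped between the groups and 1 lay above (median 0.63), and their summed level was 2624 and 1099.9 FPKM in WT and 2659 and 1859 FPKM in KO. Of 14 glycolysis and hypoxia genes 8 overlapped, 4 lay above and 2 below (median 0.13). Of 5 interferon genes 3 lay above WT and none below, with a median of 1.08 for KO 64 alone and 0.37 for KO 84 alone. None of these genes passed the adjusted threshold (limma).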
